A study of Arabidopsis thaliana with 27 samples.

Results

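The 51 nuclear genes described here encode proteins of the photosynthetic light reactions, and they were taken by locus ID from a table of 34218 genes. The list names loci and uses no measured value, but it was drawn up with earlier results of these data known. They comprise 6 *LHCA* genes (antenna of photosystem I), 15 *LHCB* genes (antenna of photosystem II), *PSBS*, 12 *PSA* genes (photosystem I subunits), 10 *PSB* genes (photosystem II subunits) and 7 genes of electron transport and the ATP synthase. Of these, 50 had a mean of at least 10 normalized counts in at least 1 group and were tested. The exception was *LHCB1.5* (AT2G34420), which is listed at 0 in all 27 samples. A normalized count is a gene's read count divided by 1 size factor per sample.

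RNA was sequenced from leaves of 3 genotypes in the Col-0 background. These were WT, *GC::AtTOR* plants, which carry Arabidopsis *TOR* under a tobacco promoter that drives guard cell expression, and *35S::AtTOR* plants, which carry *TOR* under the constitutive CaMV 35S promoter. Each genotype was sampled well-watered, under drought and re-watered, with 3 samples in each of the 9 groups. Well-watered plants were held at a constant level of soil water. Drought plants had no water from 27 to 38 days after germination, 11 days in all, and re-watered plants then received water for 4 days. A genotype label stands for a construct, because several homozygous lines were combined for each construct and the line behind a sample is not given. Neither the age of the well-watered plants nor the hour of harvest is stated, so treatment, age and hour cannot be told apart.

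Light-harvesting proteins bind chlorophyll and pass excitation energy to the reaction centres. The products of *LHCB1*, *LHCB2* and *LHCB3* form the trimers of the major antenna, LHCII, whereas those of *LHCB4*, *LHCB5* and *LHCB6* sit between those trimers and the core of photosystem II. Photosystem II splits water, the cytochrome b6f complex and plastocyanin carry electrons onward, and photosystem I reduces ferredoxin. These genes are nuclear, their products are imported into the chloroplast, and many of their transcripts are among the most abundant of a green leaf and follow light and the circadian clock.

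Recovered read totals ranged from 2739872 to 16707106 per sample. The shallowest was *35S::AtTOR* re-watered replicate 1, where 1 read equals 4.13 normalized counts. *TOR* (AT1G50030) stood at 8353 to 14667 normalized counts in the 9 samples of *35S::AtTOR* and at 1060 to 1362 in the other 18, and it was not called between *GC::AtTOR* and WT in any treatment, which in whole leaves says nothing of guard cells alone. The 3 root markers summed to at most 2.67 normalized counts in any sample, and the 5 flower and seed markers to at most 92.3. The 7 mesophyll markers were detected in every group.

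Within 7 of the 9 groups, 1 library was the highest for 35 or more of the 50 tested members. These were WT well-watered replicate 2 (45 members), *35S::AtTOR* well-watered replicate 1 (47), WT drought replicate 2 (41), *GC::AtTOR* drought replicate 1 (49), *35S::AtTOR* drought replicate 2 (40), WT re-watered replicate 3 (46) and *35S::AtTOR* re-watered replicate 1 (35). *GC::AtTOR* drought replicate 3 was the lowest of its group for 49. In well-watered and re-watered *GC::AtTOR* no library was the highest for more than 25 members or the lowest for more than 28. Where libraries of a group order many members alike, a count of members is not a count of independent observations.

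Promoters of 7 members are shown, chosen for their course in these data. They are those of 5 members with steep declines in re-watered WT (*LHCB1.1*, *LHCB1.2*, *LHCB1.4*, *LHCB2.1* and *LHCA4*), of the member whose drought response differed most between *35S::AtTOR* and WT (*LHCB2.3*) and of the only tested member not called in re-watered WT (*FD2*). Each runs 250 bases up to the base before the annotated start of the gene in RefSeq's TAIR10.1, 5′ to 3′ on the strand of the gene. Capitals mark matches on either strand to 5 short motifs known from promoters of light-regulated and clock-regulated genes. One is the G-box, written CACGTG. Another is the I-box, with the letters GATAAG. The box with a CCAAT core was searched as CCAATC. The core of the evening element was searched as AAATATCT, and the binding site of the clock protein *CCA1* as AAAAATCT.
LHCB1.1: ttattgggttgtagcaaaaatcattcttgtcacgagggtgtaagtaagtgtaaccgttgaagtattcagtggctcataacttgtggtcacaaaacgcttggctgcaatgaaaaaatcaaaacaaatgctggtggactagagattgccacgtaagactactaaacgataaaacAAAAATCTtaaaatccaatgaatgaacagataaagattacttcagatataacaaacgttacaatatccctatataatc
LHCB1.2: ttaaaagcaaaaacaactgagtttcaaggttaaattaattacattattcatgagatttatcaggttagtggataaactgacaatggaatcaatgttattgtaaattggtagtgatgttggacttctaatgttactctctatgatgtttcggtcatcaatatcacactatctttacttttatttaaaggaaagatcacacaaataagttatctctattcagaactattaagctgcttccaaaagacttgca
LHCB1.4: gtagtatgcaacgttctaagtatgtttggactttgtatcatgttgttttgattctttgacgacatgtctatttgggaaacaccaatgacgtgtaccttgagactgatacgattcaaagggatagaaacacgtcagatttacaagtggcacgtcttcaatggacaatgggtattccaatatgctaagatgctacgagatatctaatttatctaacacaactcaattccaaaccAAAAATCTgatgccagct
LHCB2.1: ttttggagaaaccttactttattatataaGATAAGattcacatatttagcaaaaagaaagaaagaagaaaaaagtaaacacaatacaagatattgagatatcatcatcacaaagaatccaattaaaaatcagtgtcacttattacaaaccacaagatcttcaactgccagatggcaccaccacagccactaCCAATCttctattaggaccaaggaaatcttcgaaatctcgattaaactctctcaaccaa
LHCB2.3: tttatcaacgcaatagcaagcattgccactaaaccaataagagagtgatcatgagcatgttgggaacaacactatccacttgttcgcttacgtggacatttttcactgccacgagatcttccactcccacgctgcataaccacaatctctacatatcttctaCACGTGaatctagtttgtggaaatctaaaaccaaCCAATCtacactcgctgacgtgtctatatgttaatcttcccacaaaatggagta
LHCA4: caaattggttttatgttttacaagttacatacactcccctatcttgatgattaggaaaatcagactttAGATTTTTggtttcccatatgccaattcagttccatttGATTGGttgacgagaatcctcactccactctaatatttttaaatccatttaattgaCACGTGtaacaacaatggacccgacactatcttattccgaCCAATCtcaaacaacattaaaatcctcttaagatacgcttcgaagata
FD2: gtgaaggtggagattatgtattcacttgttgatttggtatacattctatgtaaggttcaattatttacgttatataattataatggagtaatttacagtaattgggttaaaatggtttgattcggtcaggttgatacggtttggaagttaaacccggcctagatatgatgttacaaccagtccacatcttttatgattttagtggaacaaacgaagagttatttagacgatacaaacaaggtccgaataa

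The windows lie at chr1:10475970-10476219, minus strand (*LHCB1.1*), chr1:10473503-10473752, minus strand (*LHCB1.2*), chr2:14524357-14524606, plus strand (*LHCB1.4*), chr2:1824481-1824730, minus strand (*LHCB2.1*), chr3:10255656-10255905, plus strand (*LHCB2.3*), chr3:17495034-17495283, minus strand (*LHCA4*) and chr1:22444057-22444306, plus strand (*FD2*). None runs into another annotated gene. CCAATC was found in 14 of the 51 member windows (27.5%) and in 10.2% of the 27443 windows of protein-coding nuclear genes. It was found in 7 of 15 *LHCB* windows and in no *PSA* window. CACGTG was found in 11 members (21.6%, against 6.49% of all), GATAAG in 12 (23.5% against 12.3%) and AAAAATCT in 5 (9.8% against 6.69%). AAATATCT was found in 2 members, *LHCA5* and *ATPC1* (3.92% against 4.79%), and TATAAA, not marked above, in 22 (43.1% against 47.3%). A match here is only a string of letters in a window. None of these strings contains another, and the windows of *LHCB1.2* and *FD2* held none of the 6. *LHCB2.2* and *LHCB3*, not shown, also fell more steeply than *LHCA4* in re-watered WT. *LHCB1.2*, *LHCB2.1*, *LHCB2.2* and *LHCB3* did not hold AAAAATCT, which *LHCB1.1*, *LHCB1.4* and *LHCA4* did.

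In well-watered WT the 51 genes took 12.6% ± 0.905 (SD, n = 3) of all normalized counts. The share was 11.5% ± 0.166 for *GC::AtTOR* and 7.89% ± 0.916 for *35S::AtTOR*. All samples of both lines lay below those of WT. Drought plants had 6.03% ± 0.634 (WT), 5.80% ± 1.56 (*GC::AtTOR*) and 7.55% ± 0.665 (*35S::AtTOR*). After re-watering it was lowest in WT at 1.48% ± 0.192, with 4.17% ± 0.277 in *GC::AtTOR* and 2.92% ± 0.387 in *35S::AtTOR*. The 3 genotypes did not overlap after re-watering, where the samples ran from 1.28% to 1.66% in WT, from 2.5% to 3.26% in *35S::AtTOR* and from 3.86% to 4.39% in *GC::AtTOR*. In bulk leaf RNA, fewer cells that express these genes and less of their RNA per cell cannot be told apart.

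**Figure D1:**
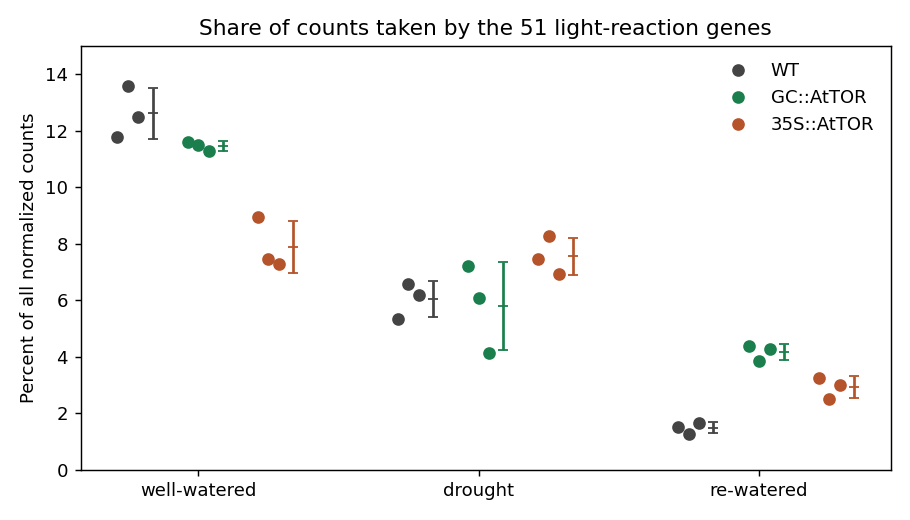
Percent of all normalized counts taken by the 51 genes in each of the 27 samples (points), by treatment and genotype, with the group mean and SD beside them. Re-watered WT samples lie between 1.28% and 1.66%, below every other sample.

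The first question is how each genotype responded to water. Calls rest on limma's moderated test on log2(normalized count + 1), with Benjamini-Hochberg adjustment over 18785 genes, where the adjusted p was under 0.05 and the log2 fold change exceeded 1 in either direction. Counts of genes that fell, rose, or were higher or lower are counts of such calls, unless another threshold is given. Under drought, 40 of the 50 members fell in WT (12.8% of all genes tested fell) and 37 in *GC::AtTOR* (17% of all), with medians of -1.41 and -1.30. The median of all genes was -0.03 in both. In *35S::AtTOR* only *LHCB4.3* was called lower (5.44% of all genes were) and only *LHCB2.3* higher (2.32% of all), and the median was -0.18. At an adjusted p under 0.05 alone, 5 were lower and 1 higher (2761 and 2216 of all 18785 genes). All drought samples lay above all well-watered ones for 3 members and below for 18 (4195 and 4508 of all genes). The call of *LHCB2.3* was lost without any 1 sample of either group, so that 1 member remained. Without *GC::AtTOR* drought replicate 3 the count for that line was 28. Re-watered leaves were also set against well-watered ones. The number that fell was 49 in WT (15.8% of all genes), 33 for *GC::AtTOR* (7.95%) and 35 for *35S::AtTOR* (9.92%), with medians of -3.25, -1.60 and -1.60, and none was called higher. At an adjusted p under 0.05 with no fold threshold, 50, 45 and 44 members were lower (5853, 3999 and 5062 of all 18785 genes). By that measure 1 member was higher in each line.

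The scaling of the samples bears on these counts. When every sample was instead scaled to the same total, the median over all genes tested moved by 0.33 for re-watered WT, by 0.22 for each re-watered line, and by 0.28 and 0.27 for drought WT and *GC::AtTOR*. The members lower after re-watering then numbered 46, 31 and 30 in WT, *GC::AtTOR* and *35S::AtTOR*, with *FD2* higher in *35S::AtTOR*, and those lower under drought 32 in WT and 26 in *GC::AtTOR*. Without the shallow library, 37 members fell in re-watered *35S::AtTOR*.

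Between drought and re-watering the genotypes took different courses. In WT 40 members fell further (12.5% of all genes fell), with a median of -1.85. In *GC::AtTOR* 13 were called lower (10.4% of all) and 3 higher (17.9% of all), namely *LHCB4.3*, *FD2* and *PSBQ1*, and the median was -0.12. At an adjusted p under 0.05 alone, 20 were lower and 10 higher (5503 and 5969 of all 18785 genes). In *35S::AtTOR* 30 fell (9.27%) and *LHCB4.3* alone rose (12%), with a median of -1.29. Without the shallow library 33 fell in *35S::AtTOR*. The difference of this step between genotypes was not itself tested.

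**Figure D2:**
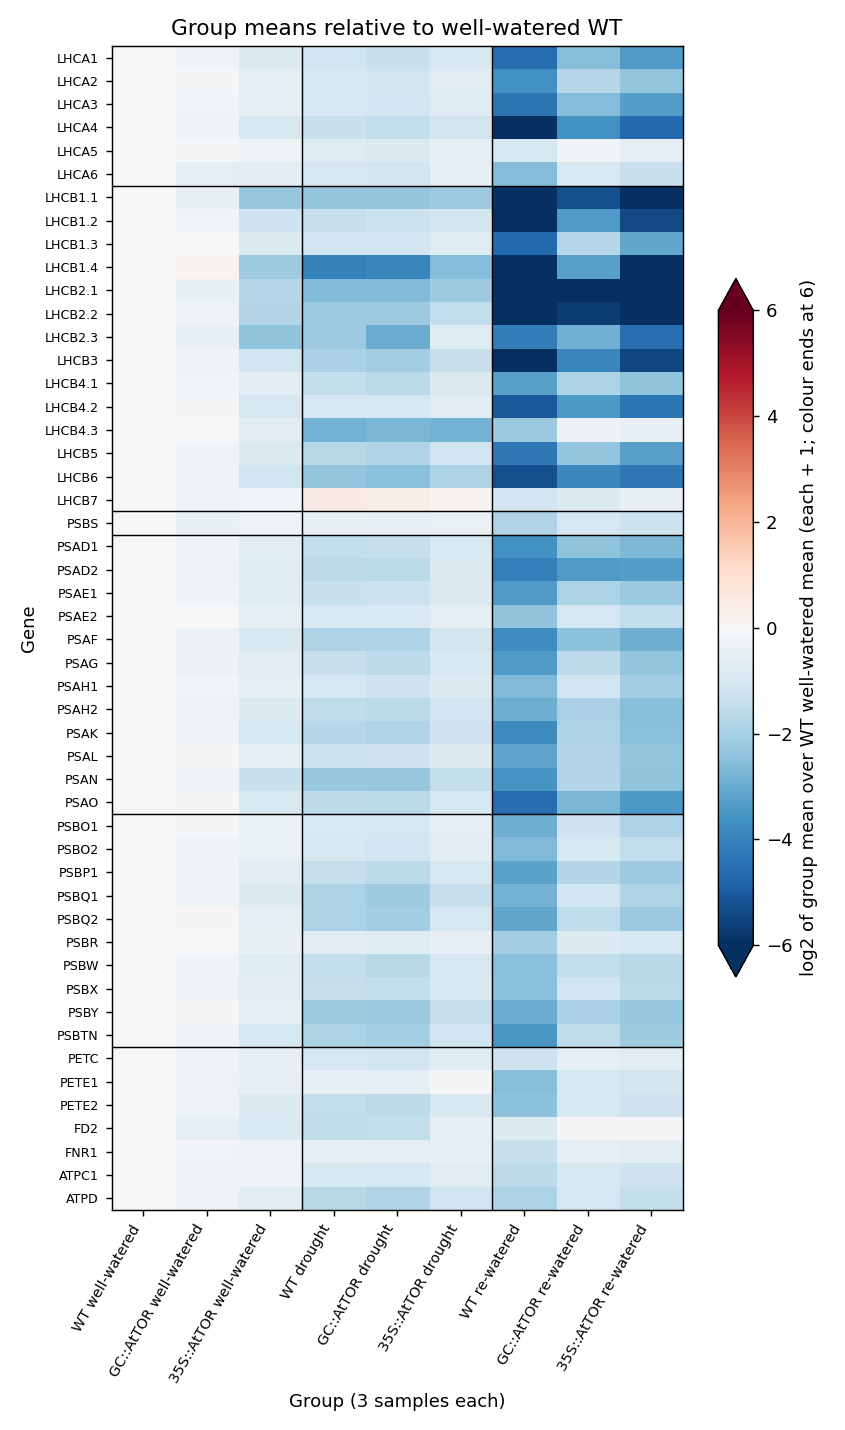
log2 of each group mean over the mean of well-watered WT (1 added to each) for the 50 tested members, in rows by subunit class, with the 9 groups in columns. The darkest cells are LHCB1, LHCB2 and LHCB3 genes and LHCA4 after re-watering, and LHCB4.3 is dark under drought in all 3 genotypes but pale after re-watering in both transgenic lines.

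The next question is how the transgenic lines differed from WT at the same treatment. After re-watering 39 members were higher in *GC::AtTOR* (8.3% of all genes were) and 26 in *35S::AtTOR* (5.15%), with medians of 1.49 and 1.02, and none was lower. Both counts rest on the same 3 re-watered WT samples, and without WT re-watered replicate 2 the second count was 14. Without the shallow library it was 20. All 3 samples of the line lay above all 3 of WT for 49 members in *GC::AtTOR* and for 46 in *35S::AtTOR*. Of the 18785 genes tested, the same held for 5406 in *GC::AtTOR* and for 4872 in *35S::AtTOR*. A direct comparison of the lines, which does not use WT, called 6 members higher in *GC::AtTOR* (2.58% of all genes) and none lower. They were *LHCA4*, *LHCB1.1*, *LHCB1.2*, *LHCB1.3*, *LHCB1.4* and *LHCB3*, and the count was 2 without *35S::AtTOR* re-watered replicate 2 and 7 without the shallow replicate 1.

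In well-watered leaves no member was called between *GC::AtTOR* and WT (1.07% of all genes were called in either direction), although 4 members had an unadjusted p under 0.05 in limma, and edgeR and DESeq2 called 0. All samples of *GC::AtTOR* lay below all of WT for 26 members and above for 0 (2257 and 2293 of all 18785 genes). In *35S::AtTOR* 10 members were called lower (1.44% of all genes), 7 of them *LHCB* genes and the others *PSAK*, *PSAN* and *PSBTN*, with a median over all members of -0.71. That count was 3 without WT well-watered replicate 2, and 5 when either replicate 2 or replicate 3 of well-watered *35S::AtTOR* was omitted. At an adjusted p under 0.05 alone, 30 members were lower and 0 higher (1034 and 988 of all 18785 genes). All samples of *35S::AtTOR* lay below all of WT for 48 members and above for 0 (4022 and 3693 of all genes). Under drought limma called no member in *GC::AtTOR* (0.016% of all genes were called), none had an unadjusted p under 0.05, and edgeR and DESeq2 called 0. In *35S::AtTOR* it called *FD2* alone, higher (1.25% of all genes), with a median of 0.43, and edgeR and DESeq2 called 0 there while 25 members had an unadjusted p under 0.05.

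**Figure D3:**
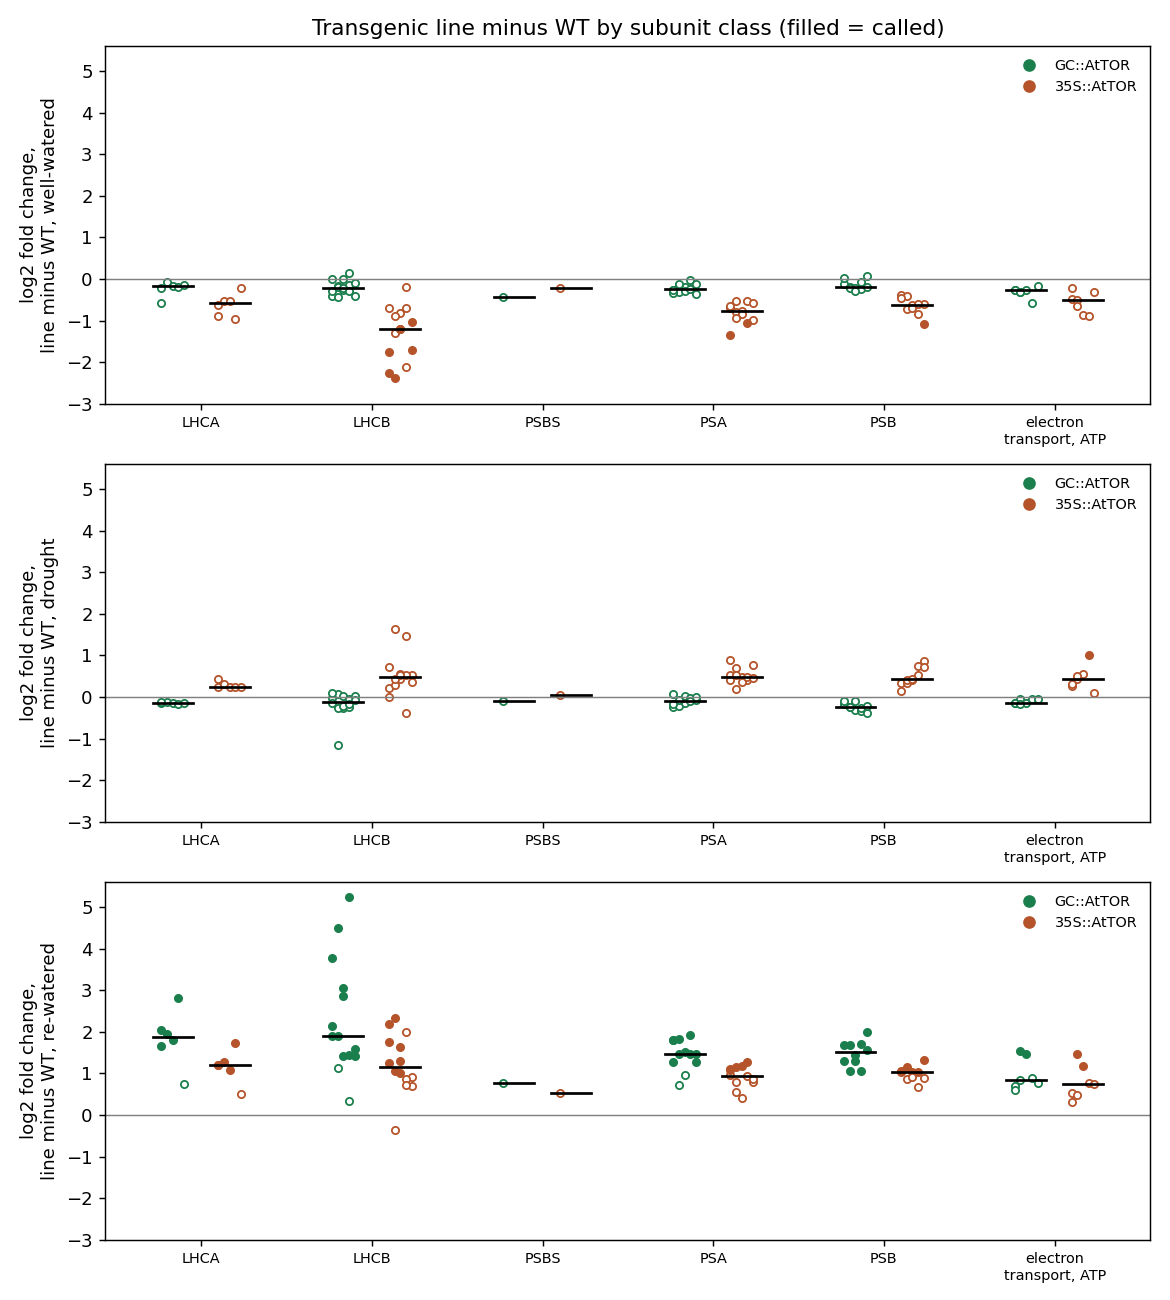
log2 fold change of each tested member, transgenic line minus WT, by subunit class in well-watered, drought and re-watered leaves (top to bottom), with filled points for called members and a bar at the class median. The re-watered panel has 39 filled members for GC::AtTOR and 26 for 35S::AtTOR, against 10 in the well-watered and 1 in the drought panel, all of 35S::AtTOR.

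Further contrasts asked whether the response itself differed from that of WT. Both lines were set against the same WT samples. The step between well-watered and re-watered plants differed for 44 members in *GC::AtTOR* (8.8% of all genes were called in this direction) and for 45 in *35S::AtTOR* (7.82%, and 42 members without the shallow library), each as a higher log2 change than in WT, with medians of 1.69 and 1.73. In *35S::AtTOR* this step sets a median of -0.71 against WT in well-watered leaves beside 1.02 in re-watered ones. In *GC::AtTOR* it sets -0.22 beside 1.49. The drought response differed for 31 members in *35S::AtTOR* (2.09% of all genes), with a median of 1.22. That count lay between 16 and 34 when 1 library was left out, and it was under 21 without WT well-watered replicate 2 (18), WT drought replicate 1 (20), *35S::AtTOR* well-watered replicate 2 (18) or replicate 3 (19), or *35S::AtTOR* drought replicate 2 (16). It sets a median of -0.71 against WT in well-watered *35S::AtTOR* beside 0.43 under drought. For *GC::AtTOR* the drought response was called different for none (0.245% of all genes were called in either direction), with 0 at an unadjusted p under 0.05 and 0 in edgeR and DESeq2.

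Where nothing else is said, the WT samples of a gene given below fell without overlap from well-watered to drought to re-watered. Of the photosystem I antenna, all 6 *LHCA* genes were called lower in re-watered WT (median -4.03), and 4 of 6 in each transgenic line. At an adjusted p under 0.05 alone, 4 were lower in *GC::AtTOR* and 5 in *35S::AtTOR*. *LHCA4*, whose product pairs with that of *LHCA1*, had 74439, 100797 and 83979.6 well-watered, 29938, 35456 and 36170.0 under drought and 1161, 655 and 1327 after re-watering in WT. In *GC::AtTOR* its normalized counts were 78816, 75252 and 70302 well-watered, 38385, 31332 and 22468 under drought and 7518, 5807 and 7878 after re-watering. In *35S::AtTOR* they were 51535, 43043 and 38108 well-watered, 39884, 44027 and 36718 under drought and 3034, 2656 and 4573 after re-watering. *LHCA4* was lowest in WT, intermediate in *35S::AtTOR* and highest in *GC::AtTOR* after re-watering, with no overlap between the 3. Between well-watered and re-watered WT it fell (log2 fold change -6.42 ± 0.25 (SE), adjusted p = 4.90e-15), and *GC::AtTOR* exceeded WT after re-watering by 2.80 ± 0.25 (SE).

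*LHCA1*, *LHCA2* and *LHCA3*, the other main antenna genes of photosystem I, had log2 changes of -4.59, -3.66 and -4.39 in re-watered WT. Each was higher in both lines than in WT after re-watering, by 2.05, 1.95 and 1.80 in *GC::AtTOR*. *LHCA5* and *LHCA6*, whose products join photosystem I to the NDH complex, are expressed at a low level and changed less. *LHCA5* had 2822, 3044 and 2999.7 well-watered, 1867, 1932 and 1558 under drought and 1406, 1408 and 1511 after re-watering in WT. Its values were 2596, 2645 and 2810.4 well-watered, 2092, 1473 and 1315 under drought and 1893, 2642 and 2766 after re-watering in *GC::AtTOR* and 2712, 2330.4 and 2587 well-watered, 2126, 2112 and 2032 under drought and 2042, 1971 and 2078 after re-watering in *35S::AtTOR*. *LHCA5* had its 3 lowest re-watered samples in WT, with the lines overlapping each other. *LHCA5* fell in re-watered WT (log2 fold change -1.04 ± 0.14 (SE), adjusted p = 1.07e-06) and was at -0.16 and -0.32 in the lines, where it was not called. *LHCA6* was called higher in both lines after re-watering (1.65 and 1.19).

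The *LHCB* genes held the widest range of all classes. In re-watered WT all 14 tested genes fell, from -9.14 to -1.16, and the 7 *LHCB1* and *LHCB2* genes had a median of -7.94. *LHCB1.1* (AT1G29920), an LHCII gene, had the steepest fall of all members, with 21475, 51372 and 34119 well-watered, 5186, 7517 and 7845 under drought and 59.8, 34.6 and 95.2 after re-watering in WT. *GC::AtTOR* gave 20309, 21450.0 and 36502 well-watered, 8680.5, 8414 and 4029 under drought and 537, 594 and 1633 after re-watering, and *35S::AtTOR* gave 9597, 7219.9 and 5001 well-watered, 6661, 10395 and 6827 under drought and 674, 123 and 234 after re-watering. *LHCB1.1* was lower in every re-watered WT sample than in any re-watered sample of the lines, which overlapped each other. WT retained 0.177% of its well-watered mean, *GC::AtTOR* 3.53% and *35S::AtTOR* 4.72%. The fall in WT was called (log2 fold change -9.14 ± 0.52 (SE), adjusted p = 2.60e-12). Among the re-watered samples *GC::AtTOR* replicate 3 stood well above its other replicates.

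*LHCB1.2*, *LHCB1.3* and *LHCB1.1* lie side by side on chromosome 1. *LHCB1.3* had the highest mean of all members, and per kilobase of transcript it led well-watered WT at 207227 normalized counts, ahead of *PSBR* at 67119. In WT *LHCB1.3* had 242618, 271349 and 250699 well-watered, 87984, 121808 and 121266 under drought and 10885, 5076 and 14211 after re-watering. In *GC::AtTOR* it had 276131, 272316 and 217776 well-watered, 140724, 132284 and 72107 under drought and 98218, 61553 and 74649 after re-watering, and in *35S::AtTOR* 175295, 136155 and 123396 well-watered, 129780.0, 182427 and 136028 under drought and 34594, 19264 and 34378 after re-watering. *LHCB1.3* climbed without overlap across the re-watered groups from WT to *35S::AtTOR* to *GC::AtTOR*. Its level after re-watering was 3.95% of the well-watered mean in WT, 30.6% for *GC::AtTOR* and 20.3% for *35S::AtTOR*. *LHCB1.2* had 59391, 82623 and 68416 well-watered, 21721, 29716 and 29020.4 under drought and 421, 112 and 476 after re-watering in WT. It had 62794, 61285 and 62075 well-watered, 36548, 31808 and 18249 under drought and 8163, 4623 and 6859 after re-watering in *GC::AtTOR* and 38931, 28012 and 21100.0 well-watered, 29024, 39681 and 29254 under drought and 1529, 739.9 and 2593 after re-watering in *35S::AtTOR*. *LHCB1.2* was lowest in WT, intermediate in *35S::AtTOR* and highest in *GC::AtTOR* after re-watering, with no overlap between the 3. The log2 excess of *GC::AtTOR* over WT after re-watering was 4.49 ± 0.44 (SE) for *LHCB1.2* and 3.06 ± 0.39 (SE) for *LHCB1.3*.

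*LHCB1.4* (AT2G34430) varied widely between replicates. Its normalized counts in WT were 20851, 29727 and 23914 well-watered, 1029, 2213 and 1272 under drought and 98.8, 12.4 and 138 after re-watering. They were 32344, 29967 and 20186 well-watered, 2597, 1838 and 534 under drought and 3329.9, 820.0 and 3581 after re-watering in *GC::AtTOR*. In *35S::AtTOR* they were 6594, 5895 and 4600.4 well-watered, 4073, 5339 and 2866 under drought and 178, 71.4 and 899 after re-watering. It had the largest log2 excess of *GC::AtTOR* over WT of all tested members after re-watering (log2 fold change 5.23 ± 0.80 (SE), adjusted p = 2.16e-05), and the *GC::AtTOR* and WT samples did not overlap, whereas those of *35S::AtTOR* and WT did (log2 1.99 ± 0.80 (SE), not called). Well-watered *35S::AtTOR* was at -2.12 against WT with no overlap, but was not called (adjusted p = 0.0904). *LHCB1.5*, a close copy of *LHCB1.4* on chromosome 2, is listed at 0 throughout.

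The *LHCB2* genes, whose products are the LHCII proteins phosphorylated in state transitions together with those of *LHCB1*, fell steeply and did not move alike. *LHCB2.1* had 14785, 23664 and 18710.1 well-watered, 2227, 3588 and 3213 under drought and 46.2, 44.5 and 74.8 after re-watering in WT. It had 13955, 13779.5 and 14238 well-watered, 4014, 2967 and 2227 under drought and 164, 137 and 138 after re-watering in *GC::AtTOR* and 7265, 5854 and 4434 well-watered, 3858, 5374 and 3619 under drought and 107, 92.7 and 106 after re-watering in *35S::AtTOR*. *LHCB2.1* climbed without overlap across the re-watered groups from WT to *35S::AtTOR* to *GC::AtTOR*. Its log2 change after re-watering was -8.42, -6.57 and -5.80 in WT, *GC::AtTOR* and *35S::AtTOR*. *LHCB2.2* had 12934, 20865 and 16242 well-watered, 2529.9, 4652 and 3950.2 under drought and 76.5, 47.8 and 89.3 after re-watering in WT. It had 14003, 13416 and 12766 well-watered, 5213, 4097 and 1623 under drought and 483, 218 and 275 after re-watering in *GC::AtTOR* and 6078, 4695 and 4071 well-watered, 5379, 7702 and 4953 under drought and 248, 108 and 169 after re-watering in *35S::AtTOR*. *LHCB2.2* was lower in every re-watered WT sample than in any re-watered sample of the lines, which overlapped each other. *LHCB2.2* had a log2 change of -7.87 in WT and was higher in both lines after re-watering (2.14 and 1.25). *LHCB2.3* had 2153, 4357 and 3227 well-watered, 670.4, 1231 and 248 under drought and 197, 155 and 198 after re-watering in WT. In *GC::AtTOR* it had 2221, 1985 and 2737 well-watered, 906, 257 and 79 under drought and 731, 314 and 278 after re-watering, and in *35S::AtTOR* 819, 578 and 443 well-watered, 1764, 2554 and 1348 under drought and 153, 138 and 134 after re-watering. Its samples spread widely, above all under drought in WT and *GC::AtTOR*. It was the only member called higher under drought in *35S::AtTOR* (log2 fold change 1.62 ± 0.60 (SE), adjusted p = 0.049). The change in WT was -2.40 ± 0.60 (SE), a difference of 4.02 ± 0.84 (SE). After re-watering all 3 samples of *35S::AtTOR* lay below all 3 of WT.

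*LHCB3*, *LHCB5* and *LHCB6* followed the major antenna. In re-watered WT the log2 change was -6.79 ± 0.33 (SE) for *LHCB3*, -5.29 ± 0.24 (SE) for *LHCB6* and -4.29 ± 0.25 (SE) for *LHCB5*, and all 3 were called higher in both lines than in WT after re-watering. *LHCB4*, or CP29, is encoded by 3 genes that took different courses. *LHCB4.1* had 59333, 67833 and 61445 well-watered, 23556, 26206 and 21269 under drought and 6324, 5439.8 and 7866 after re-watering in WT. It had 57098, 56907 and 55993 well-watered, 29089, 19136 and 14107 under drought and 16311, 17596 and 18968 after re-watering in *GC::AtTOR* and 45582, 35440.1 and 35806 well-watered, 33359.9, 39414 and 30442 under drought and 13738, 9549.8 and 12528 after re-watering in *35S::AtTOR*. *LHCB4.1* climbed without overlap across the re-watered groups from WT to *35S::AtTOR* to *GC::AtTOR*. The log2 excess over WT was 1.44 in *GC::AtTOR* (called) and 0.87 in *35S::AtTOR* (not called).

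*LHCB4.2* had 20481, 25546 and 22550.2 well-watered, 9048, 12442 and 12642 under drought and 696, 492 and 926 after re-watering in WT. Its values were 23774, 23389.7 and 17546 well-watered, 13758, 12198 and 7159.6 under drought and 2775, 1661 and 1871 after re-watering in *GC::AtTOR* and 13012, 10742 and 9949 well-watered, 14139.6, 16209.8 and 12916 under drought and 1364, 833 and 1195 after re-watering in *35S::AtTOR*. *LHCB4.2* was lower in re-watered WT than in all samples of *GC::AtTOR*, and the other line overlapped WT. Its fitted change after re-watering was below that of *LHCB4.1* in each genotype (log2 -5.06, -3.38 and -3.33), although the difference between the genes was not tested. *LHCB4.3* took another course. In WT it had 1538, 1529.8 and 1427 well-watered, 173, 226 and 231 under drought and 303, 266 and 374 after re-watering. In *GC::AtTOR* it had 1481, 1371 and 1672 well-watered, 249.9, 231 and 188 under drought and 861, 1334 and 1369 after re-watering, and in *35S::AtTOR* 948, 835 and 1010.1 well-watered, 214, 199 and 216 under drought and 1343, 952 and 926 after re-watering. *LHCB4.3* had its 3 lowest re-watered samples in WT, with the lines overlapping each other, while in WT drought was the lowest treatment. It fell under drought in all 3 genotypes (-2.84, -2.76 and -2.14) and rose from drought to re-watering in both lines (2.39 and 2.33), while WT was at 0.58 and not called.

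*LHCB7*, the least abundant tested member per kilobase in well-watered WT at 264 normalized counts, is a rare *LHCB* homologue. In WT it had 289, 332 and 343 well-watered, 524, 402 and 446 under drought and 128, 142 and 159.9 after re-watering. The values were 235, 265 and 285 well-watered, 388, 404 and 423 under drought and 147, 215 and 188 after re-watering in *GC::AtTOR* and 259, 285 and 304 well-watered, 361, 297 and 394 under drought and 239.7, 259.6 and 215 after re-watering in *35S::AtTOR*. *LHCB7* was lower in re-watered WT than in all samples of *35S::AtTOR*, and the other line overlapped WT, while in WT the drought samples lay above the well-watered ones. The log2 change under drought was 0.50 ± 0.14 (SE) in WT and 0.63 ± 0.14 (SE) in *GC::AtTOR*, neither called, and *LHCB7* was called lower after re-watering in WT (-1.16) and in neither line. *PSBS*, which senses lumen acidity and sets off the quenching of excess excitation, had 21659, 24682 and 22805 well-watered, 17557, 17457 and 15994 under drought and 6472, 6591 and 6662 after re-watering in WT. It had 15695, 16014 and 19427 well-watered, 19947, 15722 and 12995 under drought and 10117, 12404 and 11452 after re-watering in *GC::AtTOR* and 22369.8, 17964 and 19309 well-watered, 17376, 17453 and 17824 under drought and 10659, 8809 and 9157 after re-watering in *35S::AtTOR*. *PSBS* had its 3 lowest re-watered samples in WT, with the lines overlapping each other. *PSBS* fell in re-watered WT (log2 fold change -1.81 ± 0.15 (SE), adjusted p = 8.01e-10). *GC::AtTOR* exceeded WT there by 0.78 (limma adjusted p = 2.16e-04) and *35S::AtTOR* by 0.53 (0.00662), both under the fold threshold and so not called.

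**Figure D4:**
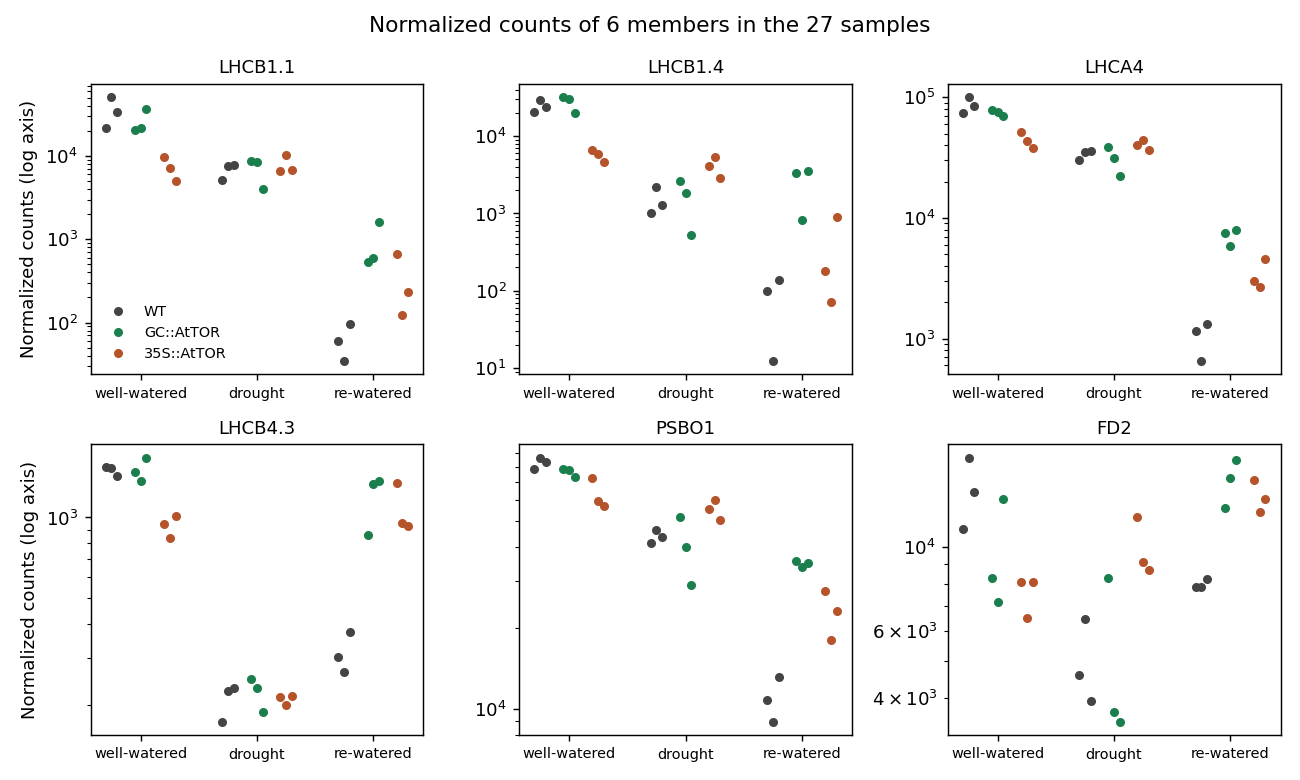
Normalized counts (log axis) of LHCB1.1, LHCB1.4, LHCA4, LHCB4.3, PSBO1 and FD2 in the 27 samples, coloured by genotype and arranged by treatment. Re-watered WT lies below both lines in every panel, except that 1 sample of 35S::AtTOR overlaps it for LHCB1.4.

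The *PSA* genes of photosystem I fell as a class. All 12 were called lower in re-watered WT (-4.59 to -2.45, median -3.46), and 11 in each line. In each line all 12 were lower at an adjusted p under 0.05. Against WT after re-watering, 10 were called higher for *GC::AtTOR* and 5 for *35S::AtTOR*, and all samples of both lines lay above those of WT for all 12. Among all 18785 genes tested, 5406 lay so in *GC::AtTOR* and 4872 in *35S::AtTOR*. *PSAL*, which helps to bind LHCII to photosystem I, had the highest mean, with 63087, 66419 and 64860.3 well-watered, 26369, 30243 and 24010.3 under drought and 6908, 6057 and 8442 after re-watering in WT. It had 63369, 62531 and 53938 well-watered, 33484, 24584 and 22881 under drought and 20238, 17899 and 20158 after re-watering in *GC::AtTOR* and 51531, 38649.7 and 40657 well-watered, 33901, 42416 and 34668 under drought and 14962, 10662 and 13197 after re-watering in *35S::AtTOR*. *PSAL* was lowest in WT, intermediate in *35S::AtTOR* and highest in *GC::AtTOR* after re-watering, with no overlap between the 3. *PSAO*, of the same docking region, had 39496, 44197 and 41091 well-watered, 12159, 16466 and 12959 under drought and 1732, 1389 and 2144 after re-watering in WT. *PSAO* had 38015, 39309 and 36731 well-watered, 18126, 12483 and 9870.3 under drought and 7647, 4956 and 6063 after re-watering in *GC::AtTOR* and 26900.0, 19634 and 18938 well-watered, 17612, 23689.9 and 18411 under drought and 4427, 3189 and 3970.4 after re-watering in *35S::AtTOR*. *PSAO* climbed without overlap across the re-watered groups from WT to *35S::AtTOR* to *GC::AtTOR*. It showed the steepest fall of the class in WT (log2 fold change -4.59 ± 0.22 (SE), adjusted p = 1.45e-13).

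*PSAK*, near the antenna on the core, had 19962, 24967 and 21199 well-watered, 6306, 7789.9 and 6142 under drought and 1605, 1348 and 1931 after re-watering in WT. It had 18459, 17887 and 19266 well-watered, 8509, 5681 and 4987 under drought and 6898, 5318 and 6209 after re-watering in *GC::AtTOR* and 13082, 9748 and 9201 well-watered, 8717, 10771 and 8563 under drought and 4720.0, 3293 and 3749 after re-watering in *35S::AtTOR*. *PSAK* was lowest in WT, intermediate in *35S::AtTOR* and highest in *GC::AtTOR* after re-watering, with no overlap between the 3. *PSAK* had the largest excess of *GC::AtTOR* over WT in the class after re-watering (1.92 ± 0.19 (SE)). PSAD and PSAE form the stromal side on which ferredoxin docks, and each is encoded by a gene pair. *PSAD1* had 32230.5, 37558 and 33358 well-watered, 11586, 14369 and 11319 under drought and 2867, 2286 and 3033 after re-watering in WT. It had 28857, 27644 and 29416 well-watered, 16644, 12076 and 10758 under drought and 7039, 5959.6 and 6558 after re-watering in *GC::AtTOR* and 23802, 19789 and 20426 well-watered, 16776, 20332 and 16946 under drought and 5741, 4569 and 5537 after re-watering in *35S::AtTOR*. *PSAD1* climbed without overlap across the re-watered groups from WT to *35S::AtTOR* to *GC::AtTOR*. *PSAD1* was called higher for re-watered *GC::AtTOR* against WT (1.26).

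*PSAD2* had 8030.0, 10808 and 9020.1 well-watered, 2675, 3739.6 and 2928 under drought and 558, 434 and 612 after re-watering in WT. In *GC::AtTOR* *PSAD2* had 7616, 7159 and 7597 well-watered, 4402, 2968 and 1639.5 under drought and 1041, 742 and 863 after re-watering, and in *35S::AtTOR* 5913, 4945 and 5186 well-watered, 5275, 5578 and 4215 under drought and 1066, 934 and 785 after re-watering. *PSAD2* was lower in every re-watered WT sample than in any re-watered sample of the lines, which overlapped each other. It had the smallest excess of the class in *GC::AtTOR* (0.72 ± 0.24 (SE), not called). *PSAE1* had 9663, 11698 and 10554 well-watered, 4168, 4823 and 3723 under drought and 1027, 879 and 1089 after re-watering in WT. It had 9343, 9305 and 9259 well-watered, 5302, 4368 and 3327 under drought and 3100.5, 2430.4 and 3017 after re-watering in *GC::AtTOR* and 7437, 5703 and 5699 well-watered, 6102, 6456 and 5057 under drought and 2476, 2227 and 2097 after re-watering in *35S::AtTOR*. *PSAE1* had its 3 lowest re-watered samples in WT, with the lines overlapping each other. *PSAE2*, the other gene of that pair, had 7388, 7759.9 and 7874 well-watered, 3945, 4596 and 3606 under drought and 1425, 1138 and 1701 after re-watering in WT. It had 7721, 7785 and 7016 well-watered, 4874, 4111 and 3162 under drought and 3649, 3840.1 and 4072 after re-watering in *GC::AtTOR* and 6213, 4752 and 5051 well-watered, 5104, 6049 and 4917 under drought and 3480.1, 2203 and 2530.2 after re-watering in *35S::AtTOR*. *PSAE2* was lowest in WT, intermediate in *35S::AtTOR* and highest in *GC::AtTOR* after re-watering, with no overlap between the 3. *PSAE2* had the smallest fall of the class in re-watered WT (-2.45, against -3.41 for *PSAE1*).

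The PSAH pair is also of the LHCII docking region. Per kilobase of transcript *PSAH1* had 8701 and *PSAH2* 16946 normalized counts in well-watered WT. *PSAH1* had 10866, 11896 and 11173 well-watered, 5624, 5725 and 5147 under drought and 1703, 1602 and 2019 after re-watering in WT. It had 10262, 9999 and 10256 well-watered, 6158, 4414 and 3878 under drought and 6065, 4279 and 4558 after re-watering in *GC::AtTOR* and 8718, 7274 and 7397 well-watered, 5769, 7045 and 6112 under drought and 2802, 2039.8 and 3039.7 after re-watering in *35S::AtTOR*. *PSAH1* climbed without overlap across the re-watered groups from WT to *35S::AtTOR* to *GC::AtTOR*. *PSAH2* had 10222, 13627 and 11840.0 well-watered, 3978, 4436 and 3876 under drought and 1508, 1529.8 and 1577 after re-watering in WT. Its values were 9522, 9177 and 10437 well-watered, 5125, 3598 and 2788 under drought and 4534, 2359.7 and 2471 after re-watering in *GC::AtTOR* and 7714, 6241 and 6035 well-watered, 5379, 5952 and 4614 under drought and 2062, 2019 and 2052 after re-watering in *35S::AtTOR*. *PSAH2* was lowest in WT, intermediate in *35S::AtTOR* and highest in *GC::AtTOR* after re-watering, with no overlap between the 3. The log2 change in re-watered WT was -2.68 ± 0.16 (SE) for *PSAH1* and -2.94 ± 0.20 (SE) for *PSAH2*. Re-watered *GC::AtTOR* exceeded WT by 1.47 for *PSAH1* (called) and by 0.95 for *PSAH2* (not called). Of the rest, *PSAF* and *PSAN*, which lie on the plastocyanin side, changed by -3.73 and -3.51 in re-watered WT, and *PSAG*, near the photosystem I antenna, by -3.40. *PSAN* had the largest drought decline of the class in WT (-2.29) and was lower in well-watered *35S::AtTOR* (-1.35).

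The *PSB* genes of photosystem II were called lower in all 10 cases in re-watered WT (-3.51 to -2.11, median -2.89) and in 6 in each line. In each line all 10 were lower at an adjusted p under 0.05. Against re-watered WT all 10 were called higher for *GC::AtTOR* and 6 for *35S::AtTOR*. PSBO, PSBP and PSBQ shield the manganese cluster that oxidizes water. *PSBO1* (AT5G66570) had 78493, 86527 and 83067 well-watered, 41647, 46392 and 43712 under drought and 10792, 8941 and 13078 after re-watering in WT. It had 78690.2, 77685 and 73136 well-watered, 52099, 40209 and 28840.0 under drought and 35628, 33751 and 34962 after re-watering in *GC::AtTOR* and 72583, 59612 and 57298 well-watered, 55389.5, 60178 and 50582 under drought and 27378, 18020.3 and 23066 after re-watering in *35S::AtTOR*. *PSBO1* climbed without overlap across the re-watered groups from WT to *35S::AtTOR* to *GC::AtTOR*. After re-watering it was higher than WT in *GC::AtTOR* (log2 fold change 1.69 ± 0.22 (SE), adjusted p = 4.12e-06) and in *35S::AtTOR* (log2 fold change 1.06 ± 0.22 (SE), adjusted p = 8.30e-04).

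*PSBO2*, the less abundant gene of the pair, had 20437, 22701 and 21744 well-watered, 10522, 11928 and 10686 under drought and 3537, 2908 and 4000.3 after re-watering in WT. It had 17683, 18357 and 20310.4 well-watered, 13941, 8776 and 6604 under drought and 8869, 12372 and 12092 after re-watering in *GC::AtTOR* and 18415, 14990.1 and 15549 well-watered, 13567, 15074 and 13102 under drought and 9399, 5913 and 8204 after re-watering in *35S::AtTOR*. *PSBO2* was lower in every re-watered WT sample than in any re-watered sample of the lines, which overlapped each other. Its log2 excess over re-watered WT was 1.67 for *GC::AtTOR* and 1.16 for *35S::AtTOR*. *PSBQ1* had 15656, 18438 and 15862 well-watered, 4397, 4955 and 3851 under drought and 2349, 2124 and 2429 after re-watering in WT. It had 13315, 13364 and 15570.5 well-watered, 5720.1, 3421 and 2110.3 under drought and 8081, 6454 and 8014 after re-watering in *GC::AtTOR* and 10965, 8323 and 8612 well-watered, 6585, 7051 and 5434 under drought and 5067, 3974 and 5032 after re-watering in *35S::AtTOR*. *PSBQ1* climbed without overlap across the re-watered groups from WT to *35S::AtTOR* to *GC::AtTOR*. *PSBQ1* was the only *PSB* gene called higher from drought to re-watering in *GC::AtTOR* (1.11). At an adjusted p under 0.05 alone, 3 *PSB* genes were higher there and 0 lower.

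*PSBQ2* had 35939.8, 39188 and 37334 well-watered, 10362, 11889 and 8185 under drought and 4513, 3647 and 4955 after re-watering in WT. Its values were 44544, 42864 and 31099 well-watered, 14065, 8314 and 3948 under drought and 15669.6, 11163 and 12172 after re-watering in *GC::AtTOR* and 27858, 23301 and 22881 well-watered, 19635, 21667 and 14490.5 under drought and 8365, 8105 and 7757 after re-watering in *35S::AtTOR*. *PSBQ2* was lowest in WT, intermediate in *35S::AtTOR* and highest in *GC::AtTOR* after re-watering, with no overlap between the 3. *PSBR*, which supports the binding of those subunits, had 50619.9, 53226 and 54017 well-watered, 30083, 35341 and 35959 under drought and 12839, 10355 and 13704 after re-watering in WT. It had 54598, 57536 and 47481 well-watered, 36613, 31234 and 26916 under drought and 23733, 34088 and 32947 after re-watering in *GC::AtTOR* and 43102, 35755 and 36714 well-watered, 36283, 38533 and 37035 under drought and 28274, 22675 and 24131 after re-watering in *35S::AtTOR*. *PSBR* had its 3 lowest re-watered samples in WT, with the lines overlapping each other. *PSBR* had the smallest fall of the class (-2.11 ± 0.19 (SE)) and became the most abundant member per kilobase in re-watered WT, at 15688 normalized counts. *PSBTN*, a small lumenal subunit, had 15595, 18221 and 16508 well-watered, 3701, 5624 and 4020.1 under drought and 1491, 1202 and 1778 after re-watering in WT. *PSBTN* had 13549.8, 14529 and 15666 well-watered, 6059, 3564 and 2505 under drought and 5659, 5529 and 6575 after re-watering in *GC::AtTOR* and 10550.3, 6717 and 7045 well-watered, 6463, 8751 and 6567 under drought and 4951, 2623 and 3760.2 after re-watering in *35S::AtTOR*. *PSBTN* was lowest in WT, intermediate in *35S::AtTOR* and highest in *GC::AtTOR* after re-watering, with no overlap between the 3. It had the steepest fall in WT (-3.51 ± 0.26 (SE)) and the largest excess in *GC::AtTOR* (2.00 ± 0.26 (SE)) of the class.

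*PSBW*, which stabilizes supercomplexes, had 25012, 30556 and 27031 well-watered, 9874, 10751 and 8715 under drought and 4998, 4290.4 and 5002 after re-watering in WT. It had 24294, 23146 and 23149 well-watered, 12115, 8146 and 5569 under drought and 8957, 9638 and 10959 after re-watering in *GC::AtTOR* and 18769, 15599.7 and 16035 well-watered, 12899, 14546 and 11768 under drought and 9047, 8170.2 and 8580.1 after re-watering in *35S::AtTOR*. *PSBW* had its 3 lowest re-watered samples in WT, with the lines overlapping each other. It had the smallest excess in *GC::AtTOR* of the class (1.05, called). The log2 changes in re-watered WT were -3.22 for *PSBP1*, -2.52 for *PSBX* and -2.99 for *PSBY*. *PSBY* was also the most reduced of the class under drought in WT (-2.12).

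**Figure D5:**
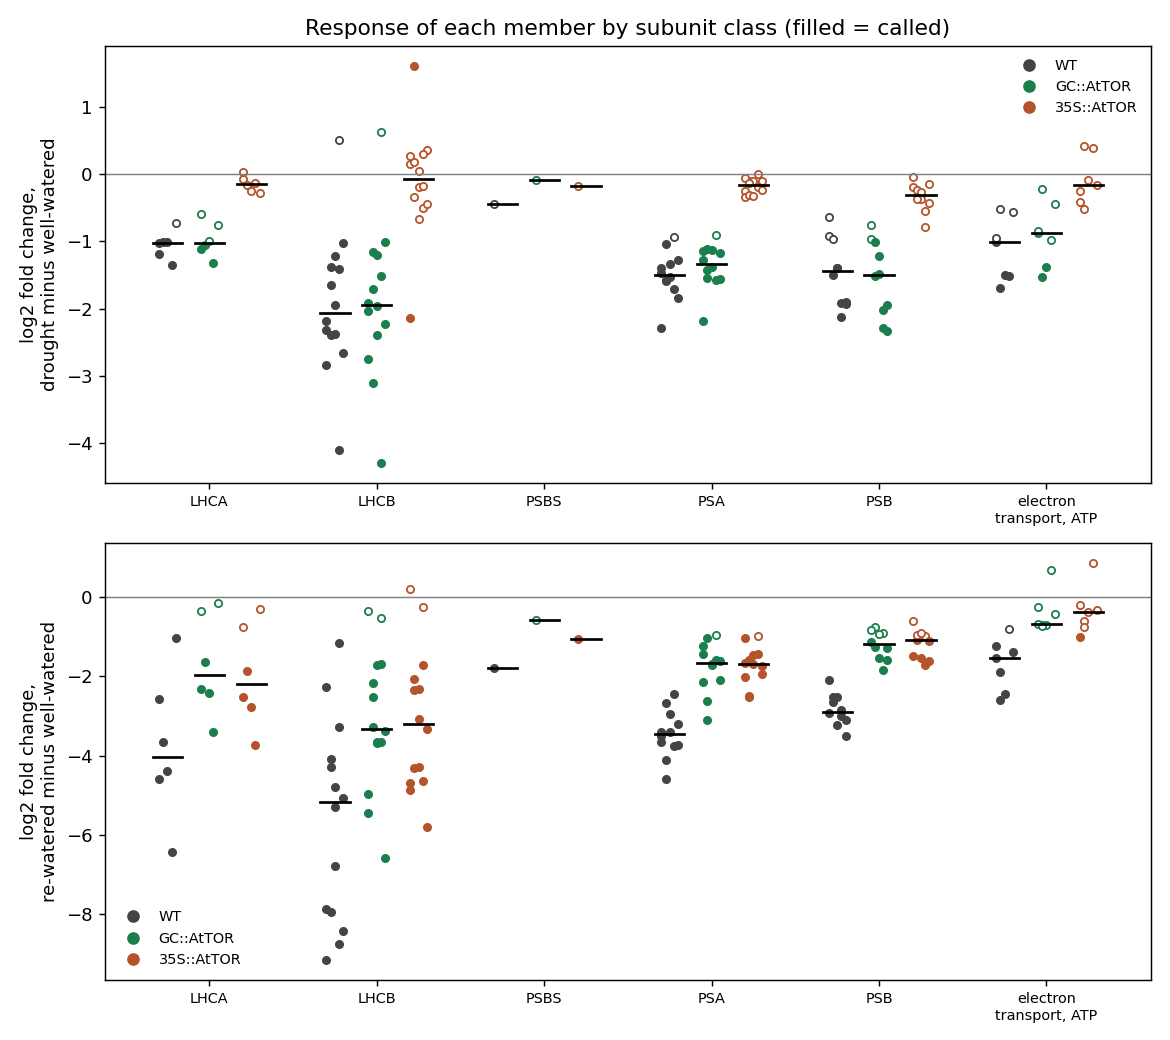
log2 fold change of each tested member by subunit class, drought minus well-watered (top) and re-watered minus well-watered (bottom), for the 3 genotypes, with filled points for called members and a bar at the class median. In the lower panel LHCB genes of WT reach -9.14, while electron transport and ATP synthase genes lie between -2.60 and 0.85 over the 3 genotypes.

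The 7 genes between and beyond the photosystems had the smallest median change of the classes in re-watered WT. It was -1.55, with 6 of 7 called, against 0 called in *GC::AtTOR* and 1, *ATPC1*, in *35S::AtTOR*. At an adjusted p under 0.05 alone, 5 were lower and 1 higher in *GC::AtTOR*, and 4 lower and 1 higher in *35S::AtTOR*. Plastocyanin is encoded by *PETE1* and *PETE2*. *PETE2*, the abundant one, had 43052, 47884 and 43788 well-watered, 15448, 19392 and 13339 under drought and 8521, 7321 and 9002 after re-watering in WT. It had 34494, 38424 and 39703 well-watered, 22060.2, 13631 and 9792 under drought and 19554, 24140.5 and 25098 after re-watering in *GC::AtTOR* and 29866, 20799 and 23662 well-watered, 21776, 26581 and 21204 under drought and 23687, 15772 and 17303 after re-watering in *35S::AtTOR*. *PETE2* was lower in every re-watered WT sample than in any re-watered sample of the lines, which overlapped each other. *PETE1* had 2273, 2642 and 2418 well-watered, 1563, 1861 and 1720.2 under drought and 409.5, 324 and 493 after re-watering in WT. It had 1857, 1769.7 and 2249 well-watered, 1956, 1814 and 1302 under drought and 1063, 1204 and 1277 after re-watering in *GC::AtTOR* and 1938, 1667 and 1563 well-watered, 2319, 2488 and 2131 under drought and 1471, 974 and 986 after re-watering in *35S::AtTOR*. *PETE1* had its 3 lowest re-watered samples in WT, with the lines overlapping each other. Both were called lower in re-watered WT (-2.60 and -2.44) and higher in both lines than in WT after re-watering, and no other gene of the class was so called.

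*FD2* (AT1G60950), the main leaf ferredoxin, had 11191, 17217 and 13966 well-watered, 4585, 6447 and 3919 under drought and 7863, 7837 and 8223 after re-watering in WT. In *GC::AtTOR* it had 8277, 7168 and 13384 well-watered, 8267, 3669.8 and 3464 under drought and 12709, 15197 and 17006 after re-watering, and in *35S::AtTOR* 8081, 6487 and 8089 well-watered, 11991, 9138 and 8725 under drought and 15024, 12380.4 and 13422 after re-watering. *FD2* was lower in every re-watered WT sample than in any re-watered sample of the lines, which overlapped each other, while in WT drought was the lowest treatment. *FD2* was the only tested member not called in re-watered WT (log2 fold change -0.80 ± 0.27 (SE), adjusted p = 0.0137). In re-watered *35S::AtTOR* all samples lay above the well-watered ones (log2 0.85 ± 0.27 (SE), not called), and it rose from drought to re-watering in *GC::AtTOR* (1.66). Its drought level in *35S::AtTOR* exceeded that in WT (log2 fold change 1.01 ± 0.27 (SE), adjusted p = 0.0444), a call that held in neither edgeR nor DESeq2. It was also lost without WT drought replicate 1 or 3, and without *35S::AtTOR* drought replicate 1 or 2.

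*ATPC1*, the gamma subunit of the chloroplast ATP synthase, had 24739.8, 27009.7 and 24766 well-watered, 13616, 13741 and 12264 under drought and 8823, 8799 and 8445 after re-watering in WT. It had 21012, 20541 and 22504 well-watered, 15777, 11048 and 9492 under drought and 12782, 13407 and 13521 after re-watering in *GC::AtTOR* and 23233, 20683 and 21503 well-watered, 16381, 17315 and 15309.5 under drought and 10031, 10773 and 11334 after re-watering in *35S::AtTOR*. *ATPC1* climbed without overlap across the re-watered groups from WT to *35S::AtTOR* to *GC::AtTOR*. It had the smallest excess of *GC::AtTOR* over re-watered WT in the class (0.61, not called). *ATPD*, the delta subunit, *PETC*, the Rieske protein of cytochrome b6f, and *FNR1*, which reduces NADP+, changed by -1.90, -1.23 and -1.38 in re-watered WT. None of these 3 was called between a line and WT at any treatment, with log2 values of 0.85, 0.70 and 0.77 for re-watered *GC::AtTOR*. At an adjusted p under 0.05 alone, all 7 genes of the class exceeded WT in re-watered *GC::AtTOR*, and 6 in re-watered *35S::AtTOR*.

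Of 17 genes of cyclic electron flow and the NDH complex, 10 fell in re-watered WT (median -1.21), 0 in *GC::AtTOR* (median 0.06, 6 with an unadjusted p under 0.05) and 1 in *35S::AtTOR*, and 4 (*PNSB3*, *PNSB5*, *PNSL2* and *PNSL4*) exceeded WT in *GC::AtTOR* there. Of 13 genes of photosystem assembly and LHC targeting, 5 fell in re-watered WT (median -0.94), among them *PSB27* (-2.18), and 0 in either line, with 6 in each at an unadjusted p under 0.05. All 5 genes of antenna regulation fell in re-watered WT, from *ABA1* at -2.79 to *STN8* at -1.04, *STN7* being the kinase of state transitions. In re-watered *GC::AtTOR* 2 of them fell (median -0.97) and in *35S::AtTOR* 3 (median -1.11). Of 5 transcription factors of photosynthesis genes, *GLK2* fell in re-watered WT (-1.03), *GNC* rose in all 3 genotypes (2.06, 2.00 and 1.43) and *GNL* was called higher in WT (2.75) and in neither line (0.64 and -0.61). *GLK1* and *HY5* were not called.

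Marker genes of cell types and of the clock were measured beside the members. The 7 mesophyll markers (*RBCS1A*, *RBCS1B*, *RBCS2B*, *RBCS3B*, *RCA*, *CA1* and *GAPA*) summed to 416554 to 476968 normalized counts in well-watered WT, 106955 to 144956 in drought WT and 190296 to 193662 in re-watered WT. The sums in well-watered leaves were 277533 to 432416 in *GC::AtTOR* and 249955 to 290571 in *35S::AtTOR*. The sums in re-watered leaves were 351597 to 421709 in *GC::AtTOR* and 195822 to 299468 in *35S::AtTOR*. In drought WT all 7 fell, with a median of -1.69 against -1.41 for the members. In re-watered WT 4 of 7 fell, with a median of -1.15 against -3.25, and from drought to re-watering the marker median was 0.61 against -1.85. In the re-watered lines the markers were at 0.39 in *GC::AtTOR* (1 higher) and 0.04 in *35S::AtTOR* (none called, 1 with an unadjusted p under 0.05), against -1.60 and -1.60 for the members. Between lines and re-watered WT 4 of the 7 were higher for *GC::AtTOR* and 1 for *35S::AtTOR*. None of the 7 was at 0 in any group. All 6 tested guard cell markers (*KAT1*, *MYB60*, *FAMA*, *SLAC1*, *HT1* and *TGG1*) fell in drought WT (median -1.80), 4 in *GC::AtTOR* and 2 in *35S::AtTOR*. Their list, with *EPF1*, summed to 14038 to 33549 in well-watered WT, 1402 to 2965 in re-watered WT and 9000.4 to 46228 in re-watered *GC::AtTOR*. That sum is mostly *TGG1*, which fell in re-watered WT (-4.09) and was higher in re-watered *GC::AtTOR* than WT (3.73), while the list's median in re-watered WT was 0.05. Of 5 epidermis markers tested 3 fell in drought WT (median -1.23), 1 in each line, and of 5 xylem markers 3 fell in re-watered WT, 0 in *GC::AtTOR* (1 with an unadjusted p under 0.05) and 4 in *35S::AtTOR*. The 4 phloem markers summed to 7236 to 7715 in well-watered *35S::AtTOR*. In well-watered WT they summed to 4828 to 5157, and in well-watered *GC::AtTOR* to 4779 to 5724.

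Of 7 afternoon and evening clock genes, 5 fell after re-watering in WT, as did 5 for *GC::AtTOR* and 6 for *35S::AtTOR* (medians -2.10, -2.02 and -2.12), with *GI* at -4.41, -4.99 and -5.31. None of the 7 was called between a line and WT after re-watering, where their medians were -0.12 and -0.23, and 5 and 4 had an unadjusted p under 0.05. Of 4 morning clock genes (*CCA1*, *LHY*, *PRR9* and *RVE8*), 3 fell in re-watered WT, 3 for *GC::AtTOR* and 2 for *35S::AtTOR*. They summed to 86.5 to 90.0 normalized counts in re-watered WT, 21.4 to 68.1 in *GC::AtTOR* and 62.3 to 157 in *35S::AtTOR*, and *RVE8* was called lower in re-watered *GC::AtTOR* than WT (-1.15). The part of cell makeup, harvest hour or age in the members' changes was not tested.

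Some values are less certain because reads can be shared. Of all stretches of 31 bases in the longest transcript, 31.2% of *LHCB1.1*, 25.1% of *LHCB1.2*, 32.1% of *LHCB1.3*, 23.5% of *LHCB1.4*, 31.8% of *LHCB2.1* and 39.4% of *LHCB2.2* also occur in another gene's transcript. *LHCA2* shares 15.1% with another locus, AT5G28450, and no other tested member shares above 0.578%. The coding sequences of *LHCB1.1* and *LHCB1.2* are 95.6% identical over 804 bases. Several members overlap a gene on the opposite strand, by 788 bases for *PSAH1*, 595 for *LHCB2.3*, 479 for *PSAG* and 436 for *PSAE1*, and the counting is not stated to use strand. *LHCB1.5* is overlapped by a long noncoding RNA over 1045 bases.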

How the data were processed

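Leaf RNA of 27 samples (9 groups of 3, described in the study as biological replicates, with all samples under the same batch label) was sequenced as paired ends on an Illumina NovaSeq instrument. The authors used Trimmomatic for trimming, STAR for alignment to TAIR10, Salmon for quantification and DESeq2 for normalization. Versions, the strand setting and any correction are not given in the sources used here, and CASAVA is also named in the submitters' processing notes. The deposited signal values are read counts divided by 1 size factor per sample. Because 1 read is worth the same for every gene of a sample, whole reads were recovered within a tolerance of 0.1. In 1 sample, well-watered *35S::AtTOR* replicate 1, the step is so near 1 that recovery rests on that tolerance alone.

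Genes whose mean reached 10 in any group (18785 of 34218, while 8784 others were at 0 in every sample) were tested on log2(normalized count + 1) with limma 3.58.1 in R 4.3.3 (all 9 groups, 18 residual degrees of freedom, eBayes with trend) in 20 comparisons, with Benjamini-Hochberg adjustment. All p-values are 2-sided. Fold changes are on that scale, which understates the change of low genes, and p-values measure the spread between these samples. edgeR 4.0.16 and DESeq2 1.42.0 on the recovered reads were alternatives, beside other pseudocounts, filters, fits and scalings, a replicate block and each sample left out. The test was also run on simulated data, in which genes varied independently within a group. Promoters, transcripts and overlaps were read from RefSeq's TAIR10.1, matched by locus for all 51 members. Of 110 entries of other lists 93 were used, since plastid loci are not paired with names in the sources used here. Every member may be named. Values in each sample are given for the paralogs of *LHCB1*, *LHCB4*, PSAD, PSAE, PSAH, PSBO, PSBQ and PETE and, within each class, for the member with the highest mean and those with the highest and lowest changes in re-watered WT and between re-watered *GC::AtTOR* and WT. Promoters printed, and the *LHCB2* genes given by sample, were added after their values were seen. Members, lists and tests were chosen with earlier results of these data known.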

Additional observations from a re-analysis of the deposited data

Results flagged for a closer look

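The response to water differed between the transgenic lines and WT by a direct test of the difference for many members. Under drought 31 members had a higher log2 change in *35S::AtTOR* than in WT (2.09% of all genes), a count of 16 to 20 without any 1 of 5 libraries, namely WT well-watered replicate 2, WT drought replicate 1, *35S::AtTOR* well-watered replicate 2 or 3, or *35S::AtTOR* drought replicate 2. For *GC::AtTOR* the drought response was called different for 0 members in limma, edgeR and DESeq2, with 0 at an unadjusted p under 0.05. Of the 31 members called in *35S::AtTOR* under drought, *LHCB2.3* had the largest difference (4.02) and *PSAL* the smallest (1.04). After re-watering 44 members had a higher change in *GC::AtTOR* than in WT (8.8% of all genes), ranging from 1.03 for *PSAD2* to 5.1 for *LHCB1.4*. In *35S::AtTOR* it was 45 members (7.82% of all genes), from 1.02 for *PETC* to 4.44 for *LHCB1.1*. These differences include the lower well-watered level of *35S::AtTOR*, where the member median against WT was -0.71. The tests use the same WT samples and are not independent. No group held more than 3 samples, so single samples were not tested for distance from their group.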

How the results depend on the processing

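Over 20 counts of called members, 220 alternatives other than leaving out a sample gave 211 counts within 1.5 times the reported one, and 9 beyond it. None of them reversed. For *35S::AtTOR* against WT under drought the count was 0 rather than 1 without a filter, with the replicate block by title number or by library number, with equal sample totals, with the compared groups alone, in edgeR and in DESeq2. For drought against well-watered *35S::AtTOR* it was 1 rather than 2 without a filter and with robust eBayes. With 1 sample left out, 124 of 144 counts stayed within 1.5 times. They ranged from 3 to 14 for well-watered *35S::AtTOR* against WT, from 0 to 1 for the same under drought, from 14 to 31 after re-watering, from 2 to 8 for *GC::AtTOR* against *35S::AtTOR* after re-watering, from 16 to 34 for the difference of the drought response in *35S::AtTOR*, and at 1 for its drought response. The cause of these changes was not tested.

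Equal sample totals also moved the median of all genes by 0.12 for well-watered *35S::AtTOR* against WT (7 members called), by 0.13 for *35S::AtTOR* between drought and re-watering (30), by -0.19 for the difference of its drought response (23), and by -0.10 for both differences of the re-watered response (43 and 42). Among the log2 fold changes of single members over the 20 comparisons, equal sample totals ended 50 calls and added 3, edgeR ended 10 and added 6, DESeq2 ended 4 and added 10, and no called value reversed. No pairing of the samples by replicate number was found, although 3 samples in a group cannot exclude it. In 0 of 16 comparisons did every pair with 1 number deviate together (correlations from -0.28 to 0.50), and in 0 of 16 did every sample correlate best with its own number. The replicate block moved no other count by over 1.5 times, with 39 and 26 members called for the lines against re-watered WT and 49 for re-watered WT. Depth limits the low members of the shallow library, where 1 read is 4.13 normalized counts.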

Other observations

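*GNL* and *GNC* encode related GATA factors that promote chloroplast genes, and they moved against the members in re-watered WT. After re-watering the log2 change of *GNL* was 2.75 for WT, 0.64 for *GC::AtTOR* and -0.61 for *35S::AtTOR*, and both lines were lower than WT there, by -1.78 and -2.50. *GNC* changed by 2.06, 2.00 and 1.43. Of the genes of the NDH complex and its supercomplex, *NDHL* was higher in re-watered *35S::AtTOR* than in WT (1.92).

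Members whose 250-base promoter held AAAAATCT had a median log2 change of -6.42 in re-watered WT (5 members), against -3.11 for the 45 without it. For CCAATC the medians were -4.39 (13 members) and -2.99 (37), and for GATAAG -3.69 (12) and -3.21 (38). The other strings went the other way, with -3.11 (11) and -3.40 (39) for CACGTG, -1.29 (2) and -3.34 (48) for AAATATCT, and -2.93 (21) and -3.51 (29) for TATAAA. These are descriptions of few genes, among them paralogs, with the letters searched and the changes known at the same time.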
